A study of Mus musculus with 8 samples.

Results

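The keratins described here were the 10 genes Krt5, Krt6a, Krt7, Krt8, Krt10, Krt14, Krt15, Krt17, Krt18 and Krt19, taken as every probe set whose single gene symbol in the platform annotation is a listed keratin. All 10 were on the array, with 17 probe sets between them, among 18193 genes tested. The arrays held RNA of the 4T1.2 mouse mammary carcinoma line grown in Balb/c mice. Tumour epithelial cells of the primary tumour, grown in the mammary gland, were on 4 arrays and matched spine metastases on 4 arrays, replicates 1 to 4 standing for 4 mice that each gave both tumours. Both groups share the strain and the tumour line, so all tumours derive from 1 line, and the labels name no treatment and no engineered allele. The age of the mice and the way the cells were isolated are not given in the sources used here.

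Keratins form the intermediate filaments of epithelial cells. Each filament is built of pairs of an acidic type I and a basic type II keratin, and the filaments are anchored at desmosomes between cells and at hemidesmosomes on the basement membrane. In the mammary gland the luminal cells carry Krt8 (type II) with Krt18 (type I), and also Krt7 and Krt19, whereas the basal myoepithelial cells carry Krt5 (type II) with Krt14 (type I), and Krt15 and Krt17 are further type I keratins of basal epithelia. Krt6a is known from wounded skin, hair follicles and luminal progenitors of the mouse mammary gland, and Krt10 from the upper layers of the epidermis.

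The luminal keratins Krt8, Krt18 and Krt7 were far more uneven in bone than in the mammary gland. Krt8 and Krt18 were near the primary level on metastasis arrays 2 and 4, lower on array 3 and lowest on array 1. Krt19 was lower than in the primary tumour on all 4 metastasis arrays, and it was the keratin with the clearest test result (10.3-fold lower, limma adjusted p = 0.00775, n = 4 arrays per group). None of the 4 basal keratins passed the test, and 2 of them, Krt15 and Krt17, had a dim signal. Of the 10 keratins 2 were lower and 0 were higher in metastasis by limma (4 at an unadjusted p under 0.05), against 12.1% of all genes lower and 9.72% higher. A share of 2 in 10 is close to the background, so the count itself is no result about keratins.

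All values are log2 signals, made by the authors with RMA, and a gene is represented by its brightest probe set unless stated. A log2 difference is metastasis minus primary, with its standard error (SE) from limma, and the adjusted p is Benjamini-Hochberg over all genes with a threshold of 0.05. The array median, 5.15 to 5.17 on primary arrays and 5.23 to 5.42 on metastasis arrays, is used as a mark of dim signal, and folds of genes under it are not exact. In RNA of bulk samples, fewer cells of a type and less RNA per cell cannot be told apart. Markers of other cells moved with the groups, while over all genes 9.72% were higher in metastasis and 12.1% lower. Of the marker lists, 7 of 10 neutrophil, 7 of 9 B lineage, 7 of 8 nerve and glia and 4 of 10 cartilage and bone genes measured were higher in metastasis, and 8 of 10 macrophage genes were lower. Their log2 summed signals ran from 11.56 to 12.11 on primary and from 14.27 to 15.64 on metastasis arrays for neutrophil genes, from 10.94 to 13.70 and from 15.20 to 16.16 for B lineage genes, from 8.20 to 8.26 and from 12.27 to 13.70 for nerve and glia genes, from 9.69 to 10.26 and from 10.64 to 11.72 for cartilage and bone genes, and from 15.24 to 16.06 and from 12.93 to 14.48 for macrophage genes. None of the measured genes of these 5 lists lay under the array median on all 8 arrays. RNA quality differed too, as the actin control signal at the 5' probe set was below that at the 3' probe set by 1.08 to 1.90 on primary arrays and by 4.55 to 6.18 on metastasis arrays. The part of these differences in the keratin results was not tested.

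**Figure D1:**
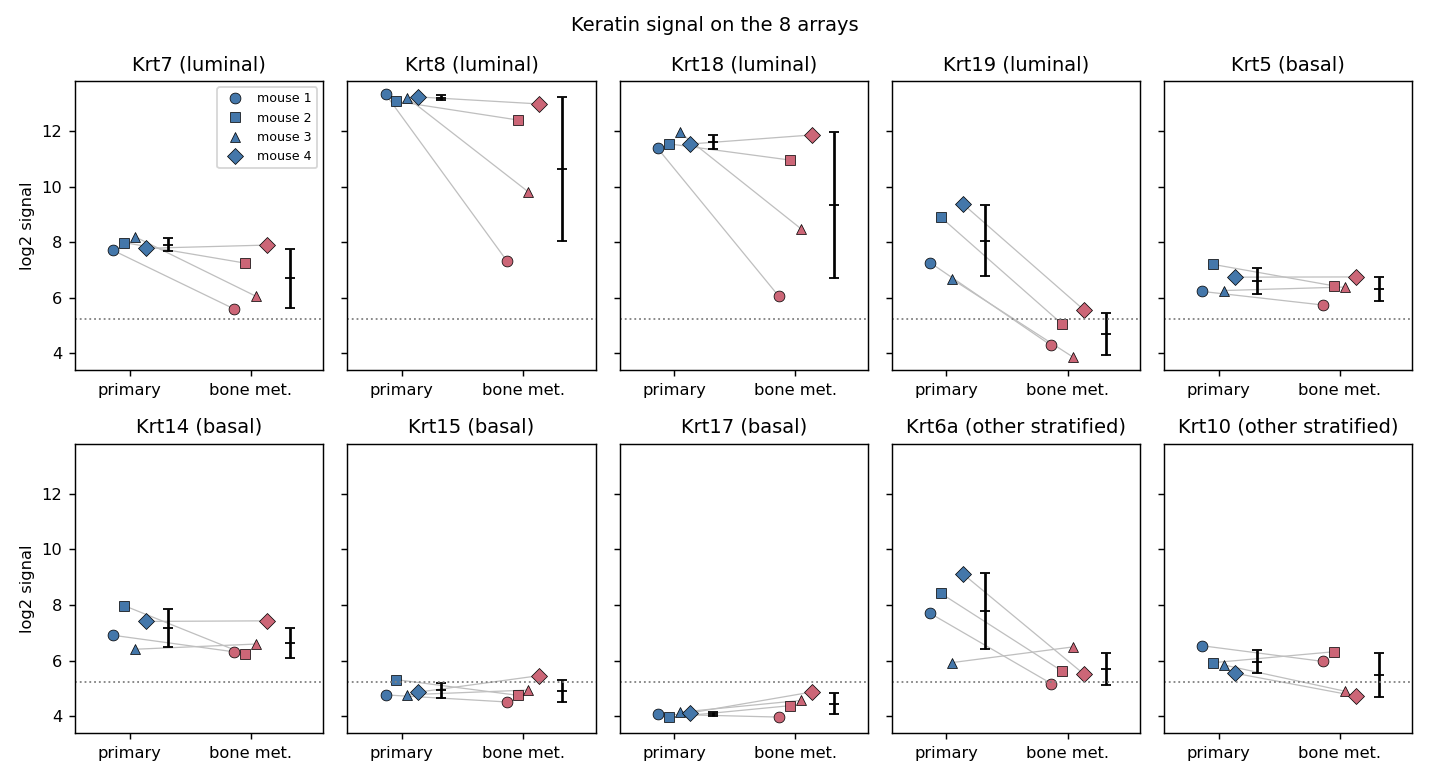
The log2 signal of each of the 10 keratins (y axis) in primary tumours and bone metastases, with a point per array, a marker shape and a grey line per mouse, the mean and SD (n = 4) as black bars, and the mean array median as a dotted line. Krt8 and Krt18 spread over more than 5 log2 units in metastases, while Krt19 lay lower on each of the 4 metastasis arrays.

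Krt8, the type II keratin of simple epithelia, had a log2 signal of 13.32, 13.07, 13.19 and 13.22 on primary arrays 1 to 4. On metastasis arrays 1 to 4 it was 7.34, 12.39, 9.80 and 12.97. Metastasis array 1 stood lowest and array 3 second lowest, and the groups did not overlap, though array 4 lay only just under the lowest primary array. Over all genes 14.2% were lower with no overlap between the groups. Against its own primary tumour Krt8 was 63.2-fold lower in mouse 1, 1.59-fold lower in mouse 2, 10.5-fold lower in mouse 3 and 1.19-fold lower in mouse 4. The log2 difference of the means was -2.57 (SE 1.09, limma adjusted p = 0.126, n = 4 per group), with a 95% interval from -5.05 to -0.10. The fit takes a common spread for both groups, and the spread of Krt8 differed widely between them. Its SE, interval and p are therefore not exact, and the interval is no firm evidence of a difference. Without metastasis replicate 1 it was -1.48 (limma adjusted p = 0.134). The other 2 probe sets of Krt8 gave -2.84 (SE 1.13) and -2.40 (SE 1.06), with the same order of the metastasis arrays. Both are of a kind whose probes can also match related transcripts.

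Krt18, the type I partner of Krt8, followed the same order. Its log2 signal was 11.37, 11.54, 11.95 and 11.53 on primary arrays 1 to 4 and 6.05, 10.95, 8.49 and 11.86 on metastasis arrays 1 to 4. Metastasis arrays 1 and 3 again lay lowest, and array 4 fell within the range of the primary arrays. The log2 difference was -2.26 (SE 1.10, limma adjusted p = 0.175, n = 4 per group), with a 95% interval from -4.77 to 0.25, and without metastasis replicate 1 it was -1.16 (limma adjusted p = 0.236). Within mice it was 39.8-fold lower in mouse 1, with a log2 difference of -3.46 in mouse 3 and its log2 difference was -0.58 in mouse 2 and 0.32 in mouse 4.

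Krt7, a type II keratin of glandular ducts, had a smaller span with the same order. It was at 7.70, 7.99, 8.19 and 7.78 on primary arrays 1 to 4 and at 5.59, 7.25, 6.05 and 7.90 on metastasis arrays 1 to 4. Array 4 again lay within the primary range, and arrays 1 and 3 lay lowest. The log2 difference was -1.22 (SE 0.47, limma adjusted p = 0.0966, n = 4 per group). Without metastasis replicate 4 it was -1.62 and passed the threshold (limma adjusted p = 0.0229).

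The spread of these 3 keratins was much larger in bone. The standard deviation (SD) of Krt8 was 0.105 over the primary arrays and 2.59 over the metastasis arrays, that of Krt18 0.250 and 2.61, and that of Krt7 0.220 and 1.06 (n = 4 each). Among all genes the metastasis SD of Krt8 stood at the 99.9th percentile, with that of Krt18 slightly above it, and that of Krt7 at the 91.4th, whereas the primary SD of Krt8 stood at the 25.7th. A larger spread in metastasis was common, since 73.7% of genes had an SD at least 1.5 times that of the primary arrays and the median SD was 0.165 in primary tumours and 0.415 in metastases. The SD ratio was 24.6 for Krt8, 10.4 for Krt18 and 4.82 for Krt7, beside a median ratio of 2.48 over all genes. The fourth luminal keratin, Krt19, had its larger SD over the primary arrays, with a ratio of 0.59. Krt5, Krt14, Krt6a, Krt15, Krt10 and Krt17 had ratios of 0.923, 0.816, 0.409, 1.55, 1.90 and 4.64, that of Krt17 on a dim probe set. These are descriptions of 4 arrays per group and were not tested. The limma SEs, intervals and p of Krt8, Krt18 and Krt7 take a common spread for both groups and so are not exact.

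The metastasis arrays also differed among themselves in RNA quality and in markers of other cells. The actin drop was 4.85, 4.55, 5.72 and 6.18 on metastasis arrays 1 to 4, largest on array 4, and the same drop of the Gapdh control was 4.66, 4.62, 6.08 and 5.51, largest on array 3. Nerve and glia genes were higher on arrays 1 and 3, where these keratins were lowest. Their log2 summed signal was 13.24 and 13.70 on metastasis arrays 1 and 3, and 12.27 and 12.29 on arrays 2 and 4. Cartilage and bone genes did likewise, with 11.60 and 11.72 on arrays 1 and 3, and 10.64 and 10.77 on arrays 2 and 4. Fibroblast and endothelial genes were also higher on arrays 1 and 3, at 13.69, 12.51, 12.80 and 12.30 on arrays 1 to 4, and macrophage genes were lower there, at 12.93, 14.48, 14.16 and 14.42. Neutrophil genes were at 14.27, 15.64, 15.32 and 14.67 and B lineage genes at 16.16, 15.25, 15.20 and 15.46 on arrays 1 to 4. The part of RNA quality and of each of these cell types in the keratin spread was not tested.

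Krt8 and Krt18 lie head to head on chromosome 15, Krt8 at chr15:101996711-102004342 on the minus strand and Krt18 at chr15:102028216-102032026 on the plus strand of GRCm38.p6, with 23874 bases between their starts. Krt7 and the type II keratins Krt5 and Krt6a are on the same chromosome, and the other 5 members, all of type I, are on chromosome 11. Krt8, Krt18 and Krt7 ordered the metastasis arrays alike, and the 250 bases before their annotated starts are shown. Those of the basal keratin Krt5, which put the arrays in the same order but over 1.01 log2 units, are shown beside them. The windows are chr15:102004343-102004592, minus strand, for Krt8, chr15:102027966-102028215, plus strand, for Krt18, chr15:101412153-101412402, plus strand, for Krt7, and chr15:101712906-101713155, minus strand, for Krt5. They come from RefSeq on GRCm38.p6 and are written 5′ to 3′, with capitals for matches to the motifs searched.
Krt8: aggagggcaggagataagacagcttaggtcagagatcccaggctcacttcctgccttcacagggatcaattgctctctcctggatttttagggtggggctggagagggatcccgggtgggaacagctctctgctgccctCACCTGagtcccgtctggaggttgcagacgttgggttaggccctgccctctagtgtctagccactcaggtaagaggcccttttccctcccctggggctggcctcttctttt
Krt18: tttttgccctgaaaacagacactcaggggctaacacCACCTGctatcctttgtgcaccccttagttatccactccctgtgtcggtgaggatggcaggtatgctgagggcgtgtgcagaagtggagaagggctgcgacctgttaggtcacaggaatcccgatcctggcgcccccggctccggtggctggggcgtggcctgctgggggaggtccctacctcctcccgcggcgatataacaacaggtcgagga
Krt7: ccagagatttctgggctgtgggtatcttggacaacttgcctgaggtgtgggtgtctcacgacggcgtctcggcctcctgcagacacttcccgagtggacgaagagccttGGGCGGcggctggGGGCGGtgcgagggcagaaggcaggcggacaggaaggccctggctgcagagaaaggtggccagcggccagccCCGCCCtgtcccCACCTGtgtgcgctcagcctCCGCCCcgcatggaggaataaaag
Krt5: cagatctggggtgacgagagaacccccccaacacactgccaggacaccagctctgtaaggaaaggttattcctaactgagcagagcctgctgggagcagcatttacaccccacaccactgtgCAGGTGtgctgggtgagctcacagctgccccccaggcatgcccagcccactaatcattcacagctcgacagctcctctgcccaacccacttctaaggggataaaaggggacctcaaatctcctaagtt
Windows were found for 6 of the 10 keratins (Krt5, Krt7, Krt8, Krt10, Krt14 and Krt18). The motifs, searched on both strands, were the E-box CACCTG, the GC box GGGCGG, the TATA box TATAAA and the AP-1 motif TGANTCA, and no match overlapped a match of another motif in the windows shown. The E-box letters, known to be bound by Snail and Zeb factors, were present in the windows of Krt8, Krt18, Krt7, Krt5 and Krt10, and 17.2% of 32817 windows of all genes hold them. The GC box, known to be bound by Sp1, was present 4 times in Krt7 and in no other keratin window, against 32.7% of all windows. The TATA box letters were in the window of Krt10 alone, against 12.4% of all windows, and the AP-1 letters in none of the 6, against 6.75%. A match is a description of the letters, and the luminal and basal windows shown share the E-box match.

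Krt19, a type I keratin of luminal cells and ducts that has nearly no tail domain, was far lower on metastasis arrays 2 and 4 as well. In this it was unlike Krt8, Krt18 and Krt7, but as with them arrays 1 and 3 were its lowest. Its log2 signal was 7.27, 8.90, 6.68 and 9.38 on primary arrays 1 to 4 and 4.29, 5.06, 3.87 and 5.57 on metastasis arrays 1 to 4. Every metastasis array lay under every primary array, and 3 of the 4 lay under their array median, so the size of the fold is not exact. The log2 difference was -3.36 (SE 0.64, 95% interval -4.81 to -1.91, limma adjusted p = 0.00775, n = 4 per group), a 10.3-fold fall, and it was lower in all 4 mice, as were 20.4% of all genes. Within mice 1 to 4 the log2 difference of Krt19 was -2.98, -3.84, -2.81 and -3.82. In mice 2 and 4, where Krt8 was 1.59-fold and 1.19-fold lower, Krt19 was therefore 14.3-fold and 14.1-fold lower. Whether the falls of Krt8 and Krt19 differ was not tested.

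Krt6a fell as well, but less surely. It was at 7.70, 8.41, 5.92 and 9.12 on primary arrays 1 to 4 and at 5.17, 5.62, 6.49 and 5.51 on metastasis arrays 1 to 4. Primary array 3 lay below metastasis array 3, so the groups overlapped, and Krt6a was lower in 3 of 4 mice. The log2 difference was -2.09 (SE 0.63, limma adjusted p = 0.0453, n = 4 per group), a 4.26-fold fall. With the mouse as a block the adjusted p was 0.081 by limma. Leaving out any single array other than primary replicate 3 ended the call (limma adjusted p from 0.0557 to 0.116), and without primary replicate 3 the log2 difference was -2.71 (limma adjusted p = 0.00895). The other probe sets of Krt6a gave smaller differences of -0.34 (SE 0.37) and -0.81 (SE 0.33), neither past the threshold over all probe sets. Close relatives of Krt6a such as Krt6b and Krt75 share much of its sequence, and probe sets that match several family members cannot be assigned to Krt6a alone.

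**Figure D2:**
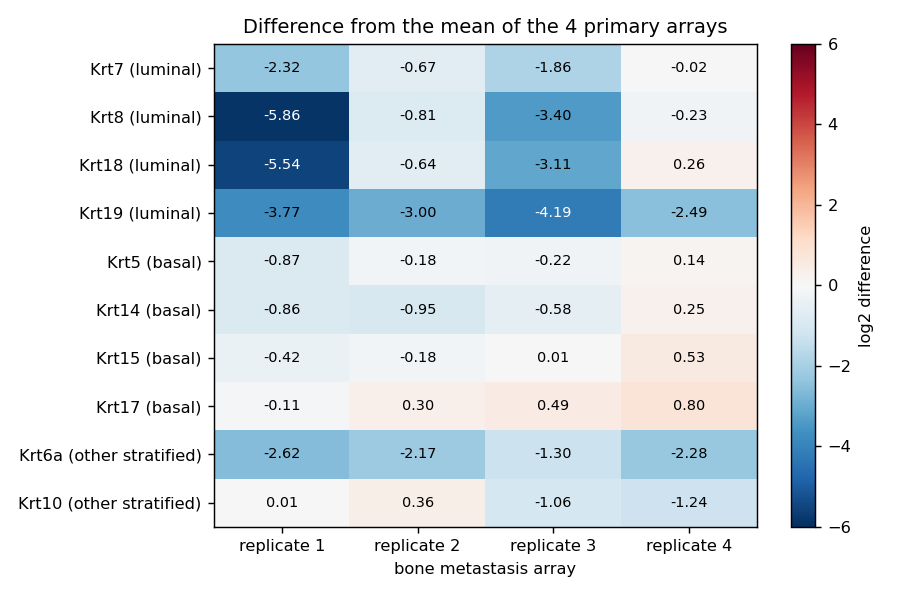
The log2 difference of each keratin (rows) on each metastasis array (columns) from the mean of the 4 primary arrays, blue for lower and red for higher. Krt8 and Krt18 were lowest on arrays 1 and 3, and Krt19 and Krt6a were lower on all 4 arrays. The basal keratins stayed within 1 log2 unit, but Krt15 and Krt17 among them were dim.

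Among the basal keratins Krt5 was at 6.23, 7.20, 6.26 and 6.74 on primary arrays 1 to 4 and at 5.74, 6.43, 6.39 and 6.75 on metastasis arrays 1 to 4. The order of the metastasis arrays was that of Krt8. The groups overlapped, with a log2 difference of -0.28 (SE 0.29, 95% interval -0.93 to 0.37, limma adjusted p = 0.497). Krt14, its type I partner, was at 6.91, 7.97, 6.41 and 7.41 on primary arrays and at 6.31, 6.22, 6.59 and 7.43 on metastasis arrays, again with overlap. Its log2 difference was -0.53 (SE 0.38, 95% interval -1.40 to 0.33, limma adjusted p = 0.338). The brightest Krt14 probe set is of a kind whose probes can also match related transcripts, and a second Krt14 probe set gave -0.56 (SE 0.36) while the dimmest, under the array median on all 8 arrays, gave 0.30 (SE 0.16). Krt5 and Krt14 were each lower in 2 of 4 mice, mice 1 and 2.

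Krt15 and Krt17 were dim. Krt15, a keratin of basal and hair follicle stem cells, ranged from 4.76 to 5.31 in primary tumours and from 4.51 to 5.46 in metastases, and exceeded the array median on 2 of 8 arrays. Its log2 difference was -0.01 (SE 0.23, limma adjusted p = 0.974). Krt17, induced in wounded and basal epithelia, was under the array median on all 8 arrays with both of its probe sets. These gave 0.37 (SE 0.20) and -0.53 (SE 0.28), in opposite directions and neither past the threshold, and their means over the 8 arrays were 4.26 and 4.23, so which of them stands for the gene rests on a small difference in brightness. Krt10, the suprabasal keratin of epidermis, was at 6.53, 5.92, 5.84 and 5.54 on primary arrays 1 to 4 and at 5.97, 6.32, 4.89 and 4.72 on metastasis arrays 1 to 4. The groups overlapped and the log2 difference was -0.48 (SE 0.39, limma adjusted p = 0.395). Metastasis arrays 3 and 4 were the lowest for Krt10, an order other than that of the luminal keratins. Of 14 epidermal differentiation genes measured 0 passed the test in either direction by limma (1 at an unadjusted p under 0.05). Over all genes 12.1% were lower and 9.72% higher, and 9 of these 14 were under the array median on all 8 arrays. Loricrin (Lor), of the cornified envelope, differed by -0.43 (SE 0.22), involucrin (Ivl) by 0.33 (SE 0.16), Dmkn by 1.82 (SE 0.76) and Sbsn by 1.03 (SE 0.51).

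**Figure D3:**
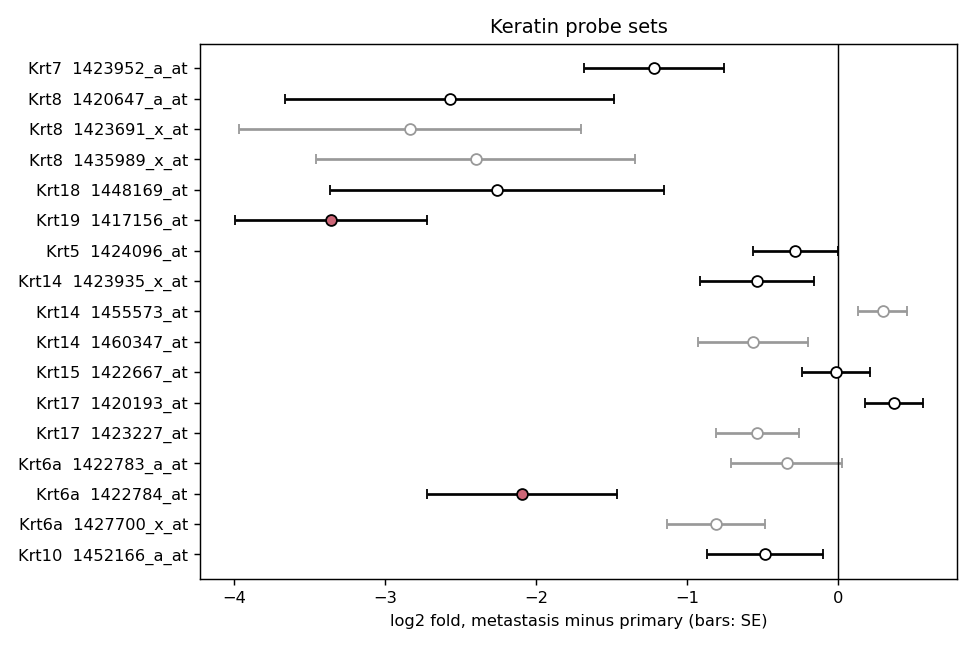
The log2 fold, metastasis minus primary, of all 17 keratin probe sets (x axis, bars are SE), with black for the probe set used for a gene, grey for the others and a filled point for an adjusted p under 0.05. Only Krt19 and the brightest Krt6a probe set are filled, the 3 probe sets of Krt8 lie together, and those of Krt14 and Krt17 lie on both sides of 0.

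Over all 34945 probe sets with a single symbol, 2 of the 17 keratin probe sets were lower by limma and 0 were higher, against 11.9% of probe sets lower. Set side by side by class, the mean deviation of the 4 luminal keratins from their primary means was -4.37, -1.28, -3.14 and -0.62 on metastasis arrays 1 to 4. That of the 4 basal keratins was -0.56, -0.25, -0.07 and 0.43. The luminal mean lay below the basal mean on each metastasis array, with luminal minus basal differences of -3.81, -1.03, -3.06 and -1.05. On primary arrays 1 to 4 the luminal minus basal difference was -0.08, -0.24, 0.11 and 0.20. It averaged -2.24 ± 1.42 (SD, n = 4) in metastasis, and was -2.26 in mice 1 and 2 and -2.21 in mice 3 and 4. This score rests on members chosen with results known and has no test, and on arrays 2 and 4 it rests largely on Krt19. Krt15 and Krt17 of the basal class were dim, so a fall in them could hardly be seen. On array 4 Krt5, Krt14, Krt15 and Krt17 deviated by 0.14, 0.25, 0.53 and 0.795. With dim genes filtered out, Krt15 and Krt17 among them, the luminal minus basal difference averaged -1.945 in metastasis.

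Within the primary tumours some keratins formed a second pattern. Krt19 and Krt6a were highest on primary array 4, next on array 2, then on array 1 and lowest on array 3, over 2.70 and 3.20 log2 units. Krt5 and Krt14 were also highest on arrays 2 and 4. Krt8, by contrast, ranged over 0.256 log2 units there and Krt18 over 0.586. Of the desmosome genes, Dsp (desmoplakin, which ties keratin filaments to the desmosome) and Dsg2 (a desmosomal cadherin) are given beside them, a choice made after their values were seen. Dsp was at 4.92, 7.78, 3.95 and 6.53 and Dsg2 at 5.66, 7.04, 5.43 and 6.83 on primary arrays 1 to 4. Pkp1, at 6.42, 7.60, 6.48 and 7.15, was also highest on arrays 2 and 4. Not all desmosome genes were, as Ppl was at 8.07, 7.48, 8.45 and 8.06 and Pkp3 at 8.65, 8.45, 8.91 and 8.81. Several epithelial markers outside these families were also highest on arrays 2 and 4, among them Cdh1, Esrp1, Cldn7 and Cldn4. Cldn7 was at 5.15, 6.71, 4.90 and 6.37 and Cldn4 at 8.24, 9.18, 7.77 and 8.74. Others of that list were not, such as Spint1 at 8.73, 7.72, 8.03 and 7.80. The pattern was thus not particular to keratins and desmosome genes. The primary SD of Krt6a stood at the 99.9th percentile of all genes and that of Krt19 at the 99.8th. The actin drop of 1.90, 1.84, 1.14 and 1.08 on primary arrays 1 to 4 was larger on arrays 1 and 2. The log2 summed signal of the macrophage genes was 15.24, 15.89, 15.54 and 16.06 on primary arrays 1 to 4, so that it too was highest on arrays 2 and 4, and its part in this pattern was not tested.

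Genes whose proteins anchor keratin filaments were measured as well. Of 19 desmosome and hemidesmosome genes measured 4 were lower and 2 higher by limma, against 12.1% and 9.72% of all genes, and counts this near the background are no result about the list. Periplakin (Ppl), a linker between keratins and the desmosomal plaque, fell from 8.02 to 6.65, a log2 difference of -1.37 (SE 0.23, limma adjusted p = 0.00526). Dsg2 fell by 1.59 (SE 0.37), a call lost without primary replicate 4 (limma adjusted p = 0.0576), and was under the array median on all 4 metastasis arrays. Plakophilin 3 (Pkp3) and Dsp differed by -0.94 (SE 0.34) and -1.78 (SE 0.74) without passing the test. Dsp exceeded the array median on 2 of 8 arrays, and passed the test without primary replicate 3 (limma adjusted p = 0.0424). The desmosome list had a median of -0.69 over 11 genes, beside a median of 0.09 over all genes. The integrin chains of the hemidesmosome also passed the test, as Itga6 fell by 1.64 (SE 0.26, limma adjusted p = 0.00371) and Itgb4 fell by 1.24 (SE 0.22, limma adjusted p = 0.00606), each in all 4 mice. The linkers dystonin (Dst) and plectin (Plec), which bind intermediate filaments in many cell types, rose by 1.21 (SE 0.32) and 0.90 (SE 0.27). Both calls were lost without any single primary array (limma adjusted p from 0.0516 to 0.0826 for Dst and from 0.0924 to 0.124 for Plec), and that of Plec with the mouse as a block (limma adjusted p = 0.0779). Without primary replicate 4, without mouse 3 or with the mean of a gene's probe sets, 3 of the 19 were called, all lower. Of 8 genes listed for keratin binding or filament regulation, a role not checked for Aatf, 1 was lower, near the share over all genes. It was Fam83h, which recruits a kinase to keratin filaments, lower by 1.41 (SE 0.40, limma adjusted p = 0.0372). Trichoplein (Tchp), which binds Krt8 and Krt18 filaments, was 0.67 (SE 0.24) higher and Aatf and Trim29 were at -0.90 (SE 0.39) and 0.35 (SE 0.21), none of the 3 past the threshold.

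Epithelial markers outside the keratin family were measured beside them. Of 16 2 were lower and 0 higher by limma, against 12.1% and 9.72% of all genes, so the count is no result about the list. The median was -0.20, and 2 were under the array median on all 8 arrays. Claudin 4 (Cldn4), a tight junction protein, had a log2 difference of -1.55 (SE 0.34, limma adjusted p = 0.0135) and the protease inhibitor Spint1 fell by 1.44 (SE 0.35, limma adjusted p = 0.0206), while Cldn3 was at -0.89 (SE 0.36) and Cd24a at 0.96 (SE 0.33). Epcam, the epithelial cell adhesion molecule, was at 9.26, 8.65, 8.80 and 8.96 on primary arrays 1 to 4 and at 8.34, 8.45, 8.65 and 9.35 on metastasis arrays 1 to 4. These overlapped, with a log2 difference of -0.22 (SE 0.25, limma adjusted p = 0.541), and Epcam was above the array median on all 8 arrays. On metastasis arrays 1 to 4 the list median differed from the primary mean by -0.62, -0.11, -0.30 and 0.14, and Krt8 by -5.86, -0.81, -3.40 and -0.23. The difference between the keratins and these markers was not tested. With the mouse as a block, 1 was lower (Cldn4) and 1 higher (Cd24a), and Spint1 missed the threshold (limma adjusted p = 0.0647), and the same counts were found after quantile normalization. The list count rests on the probe set and on single mice, since it was 6 with the most variable probe set (4 lower, 2 higher) and 0 without mouse 4 by limma (5 at an unadjusted p under 0.05).

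**Figure D4:**
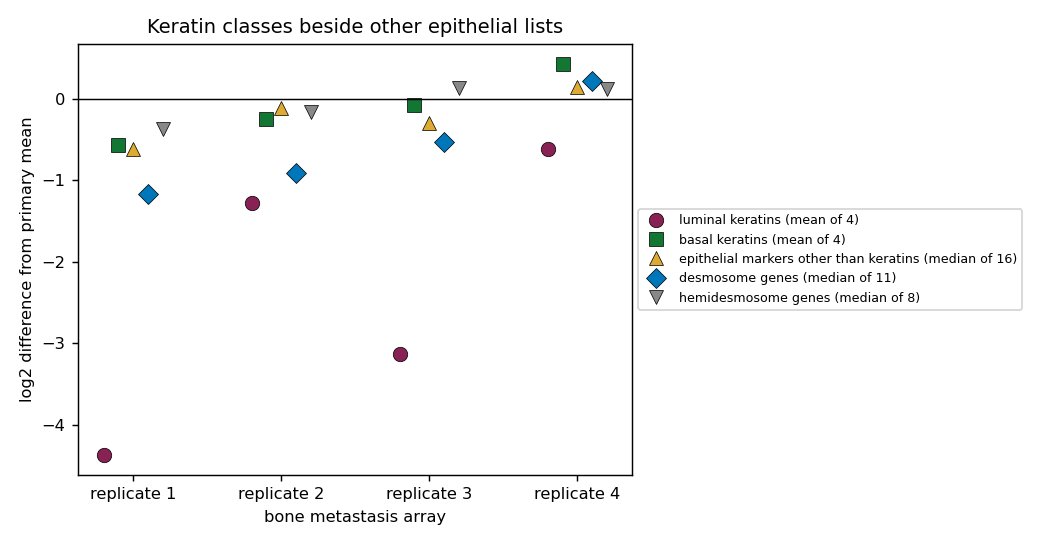
The log2 difference from the primary mean (y axis) on each metastasis array (x axis) for the mean of the 4 luminal and of the 4 basal keratins and for the medians of the other epithelial, desmosome and hemidesmosome lists. The luminal mean runs down to -4.37 on array 1. On array 2 it rests mostly on Krt19, with the other 3 keratins at -0.81 to -0.64. On array 4 Krt19 is at -2.49, and Krt7, Krt8 and Krt18 are at -0.02, -0.23 and 0.26. The list of other epithelial markers lies between -0.62 and 0.14. Means of 4 keratins and medians of longer lists are unlike measures.

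Genes of luminal and basal identity outside the keratin family were measured beside them. Of 8 luminal identity genes 2 were lower and 0 higher by limma, against 12.1% and 9.72% of all genes. So small a count is no result about the list. Foxa1, a pioneer factor of luminal cells, was at 9.23, 8.55, 8.24 and 7.88 on primary arrays 1 to 4 and at 4.77, 7.28, 5.06 and 4.91 on metastasis arrays 1 to 4. The groups did not overlap, array 2 was the highest metastasis array, and the log2 difference was -2.97 (SE 0.56, limma adjusted p = 0.00783). Over all genes 14.2% were lower with no overlap. Metastasis arrays 1, 3 and 4 lay under their array median for Foxa1, so the size of its fold is not exact. Gata3, which maintains luminal cells, fell by 1.26 (SE 0.37, limma adjusted p = 0.0393), and the hormone receptor genes Pgr and Esr1 were at 1.49 (SE 0.71) and -0.98 (SE 0.66). Of 10 myoepithelial and basal identity genes 1 was lower, near the share over all genes, and 0 were higher. The lower one was Procr, by 1.23 (SE 0.21, limma adjusted p = 0.00574). Trp63, the defining transcription factor of basal cells, was 1 of 5 genes of that list under the array median on all 8 arrays. Acta2, the smooth muscle actin of myoepithelium and also of vessel walls and fibroblasts, was at 1.21 (SE 0.43, limma adjusted p = 0.0762), Cnn1 at 0.69 (SE 0.24) and Lgr5 at 0.55 (SE 0.24).

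The 38 keratins not listed were mostly dim, with 19 under the array median on all 8 arrays and a median difference of 0.16. Of these 2 were lower and 0 higher by limma, against 12.1% and 9.72% of all genes. Krt80, a type II keratin located at desmosomes, fell by 1.03 (SE 0.27, limma adjusted p = 0.0292) and Krt88 by 0.58 (SE 0.18, limma adjusted p = 0.0492), each in all 4 mice, while Krt42 and Krt33b were at 0.54 (SE 0.18) and 0.51 (SE 0.19). Of 13 intermediate filament genes outside the keratins 7 were higher and 2 lower by limma, against 9.72% and 12.1% of all genes. The neurofilament genes Nefl, Nefh and Nefm rose by 8.05 (SE 0.31), 4.41 (SE 0.25) and 5.45 (SE 0.51) and the peripheral neuron filament gene Prph by 3.39 (SE 0.42). Nefl and Nefm were under the array median on all primary arrays, so the size of their folds is not exact. Vimentin (Vim), the filament of mesenchymal cells and often of carcinoma cells, was at 13.52 to 13.86 on primary arrays and at 11.91 to 12.86 on metastasis arrays and fell by 1.48 (SE 0.23, limma adjusted p = 0.00338), its gene being taken after its value was seen.

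Outside the keratins, the 5 genes above the median brightness whose signal followed the mean deviation of Krt7, Krt8, Krt18 and Krt19 most closely over the 8 arrays were Igfbp4, Tmem140, Pgap6, Gprc5a and Samhd1, with Pearson correlations of 0.985 for Igfbp4 down to 0.969 for Samhd1. These points share arrays, normalization and the difference between the groups, so the values are descriptions. Igfbp4, a secreted binding protein of insulin-like growth factors, was at 12.61 to 12.77 on primary arrays and at 10.87, 12.08, 11.20 and 12.52 on metastasis arrays 1 to 4. Gprc5a was at 5.90, 7.04, 6.24 and 7.36 on these arrays. That both are lowest on arrays 1 and 3 follows from how they were chosen.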

How the data were processed

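The authors deposited log2 signals, 1 per probe set and array, made with RMA (background correction, quantile normalization and probe summary) per the submitters' processing notes, after 2 rounds of amplification per the labels' protocols. Its version and the set of arrays it was run on are not given in the sources used here. Scanner files were not used. Of 45101 probe sets, 34945 had a single gene symbol, giving 18193 genes. The brightest probe set over the 8 arrays stood for a gene. Groups were compared with limma 3.58.1 (lmFit and eBayes, R 4.3.3), two-sided and unblocked, with Benjamini-Hochberg adjustment over all genes. The test takes a common spread for both groups. It was tried on simulated data with equal spread in both groups, so that trial does not cover the unequal spread seen here. The number of arrays limits precision, and the median SE was 0.23.

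Per the series' design text same-numbered arrays came from the same mouse, so the numbers pair the arrays. Their deviations from the group means correlated at 0.17, 0.01, 0.02 and -0.11 over genes. The members, gene lists and motifs were chosen with earlier results of these data known, and no list is independent evidence. All keratins were named, with the 4 genes of smallest p in each list. Of the neutrophil, B lineage, macrophage, erythroid, muscle, nerve, cartilage and fibroblast lists, though, only counts and summed signals are given. Of 6 erythroid genes 0 were called by limma (1 at an unadjusted p under 0.05), and 2 of 9 muscle genes were higher. Among 11 fibroblast and endothelial genes 1 was lower and 1 higher, against 12.1% and 9.72% of all genes. Nefl and Nefm of the nerve list are named through the intermediate filament list. Of 173 genes in 16 lists 158 were measured. Python 3.11.15 was used for sequences and matplotlib 3.10.9 for figures.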

Additional observations from a re-analysis of the deposited data

How the results depend on the processing

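The count of keratin genes past the threshold, 2 by limma, was 1 with the mouse as a replicate block, with the mean of a gene's probe sets, after quantile normalization and in mice 3 and 4 only, 3 with array weights (Krt7, Krt8 and Krt19, not Krt6a), and 1 to 2 when an array or a mouse was left out. The block changed no call of the other 9 keratins. The count of keratin probe sets, 2, was 1 with the block, after quantile normalization and in mice 3 and 4 only, 4 with array weights, and 1 to 2 when an array or a mouse was left out. In mice 1 and 2 only, limma called 0 of 18193 genes (3539 at an unadjusted p under 0.05), and so 0 keratin genes (3 unadjusted), 0 keratin probe sets (5 unadjusted), 0 desmosome and hemidesmosome genes (8 unadjusted) and 0 other epithelial genes (4 unadjusted). The count over all genes, 3975, was 1405 to 4813 when an array or a mouse was left out, with 2612, 2324 and 2236 without primary replicates 2, 3 and 4, and 1405 and 1942 without mice 3 and 4. The count of desmosome and hemidesmosome genes, 6, was 3 with the mean of probe sets and 3 to 7 in the leave-outs (3 without primary replicate 4 or mouse 3). That of other epithelial genes, 2, was 6 with the most variable probe set, 5 with the mean of probe sets, 1 in mice 3 and 4 only, and 0 to 4 in the leave-outs (4 without metastasis replicate 4).

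Krt19 was past the threshold in 20 of 22 alternatives, with log2 folds from -3.82 to -2.92, and missed it in mice 1 and 2 only and mice 3 and 4 only (limma adjusted p = 0.123 and 0.0776). Krt6a was past it in 6 of 22. Krt8 was called in 1 of 22 alternatives (array weights, limma adjusted p = 0.0436), Krt7 in 2 and Krt18 in 0, all lower throughout. Directions that turned belonged to keratins not called: Krt17 was -0.53 with the most variable probe set and -0.081 with the mean of probe sets, Krt15 was 0.19 after scaling to the 75th percentile and -0.21 to 0.17 in the leave-outs, and in mice 3 and 4 only Krt5, Krt14 and Krt15 were 0.066, 0.10 and 0.38. In those 2 mice Krt10 was -0.88 and passed the threshold (limma adjusted p = 0.0439), and Krt17 passed it, higher, without metastasis replicate 1 (0.53, limma adjusted p = 0.0458). The luminal minus basal difference was -2.72 to -1.72 in the leave-outs and negative in all alternatives. The filter on dim genes removed Krt15 and Krt17. The cause of these changes was not tested, though fewer arrays were tested in the leave-outs. Of the 20 sets of 4 keratin values, 0 held an array that stood apart by Dixon's test. With 4 values per set this test has little power, so it cannot show that no single array drives a result. Krt8 went from -2.57 to -1.48 without metastasis replicate 1.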
